A study of Penicillium oxalicum with 6 samples.

Results

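Ribosome profiling, in which the stretches of mRNA shielded by ribosomes from nuclease are sequenced, was examined in mycelia of the filamentous fungus Penicillium oxalicum for genes that were abundant and moderately raised when PoxTMA7 was knocked out. The members were chosen by their own footprint levels in these libraries, namely a knockout mean of at least 400 FPKM, a knockout over wild-type ratio of means of at least 2 and below 4, and every knockout value above every wild-type value. FPKM is the deposited footprint level, nominally scaled by gene length and library size. Of 8909 identifiers, 60 met this rule. The level and the rise of these genes are therefore a description of how they were picked, and no test supports them.

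The study compared the wild type (n = 3 libraries) with the PoxTMA7 knockout (n = 3), and the titles call the libraries biological replicates. Mycelia of both strains were grown with 1% glucose for 24 h and then moved to 1% Avicel, a microcrystalline cellulose, for 24 h. The genotype field of knockout replicates 2 and 3 reads PoxTMA8 and PoxTMA9, whereas their titles name PoxTMA7, and the titles were followed. The sources used here do not state how the deletion was made or whether the replicates come from 1 clone. They do not say which identifier is PoxTMA7, so its loss was not checked in these libraries, and the labelled cell type could not be checked against markers.

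Penicillium oxalicum secretes enzymes that break down plant cell walls, and cellulose such as Avicel is a substrate on which such enzymes are made. In budding yeast, TMA7 is a small protein found with the translation machinery, and the knockout asks how footprint levels differ without its P. oxalicum counterpart. A footprint level reflects both how much mRNA of a gene is present and how many ribosomes sit on each mRNA. No RNA-seq of these mycelia was analysed here, so more mRNA and more ribosomes per mRNA cannot be told apart, nor can a change in the make-up of the mycelium. The identifiers matched 0 of the 9964 entries of the reference table, so they carry no names or products here. The members are therefore given by identifier, with no role, and no sequence could be attached to them.

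Recovered depth was 446892 to 873861 footprints per wild-type library and 1182318 to 1470898 per knockout library, so every knockout library was deeper. Whole footprint counts were found for all 60 members in all libraries. The search accepted counts no more than 0.2 of a footprint from a whole number, so that distance is its own limit and no separate check. The member with the fewest footprints in any library had 21, and the median member had 128 in the library of least depth and 1216.5 in that of most depth. Across the members, counting error alone gives a median CV of 7.44% in the wild type against 3.10% in the knockout.

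The 60 members together took a far larger part of all FPKM in the knockout, and a rise of their sum follows from the rule. Their summed share of all FPKM was 3.02%, 3.04% and 3.07% in wild-type replicates 1, 2 and 3, and 8.63%, 8.67% and 8.72% in the knockout libraries. The libraries of a strain thus lay close together, and the strain means lay 5.63 percentage points apart. As means, the share was 3.04% ± 0.02 in the wild type against 8.67% ± 0.04 in the knockout (SD, n = 3 each), which is 2.85 times as much. In FPKM the sum went from 31143 ± 269 to 84754 ± 327, a ratio of 2.72. The ratio of the shares is higher than that of the sums because the deposited totals of the wild type are higher than those of the knockout.

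**Figure D1:**
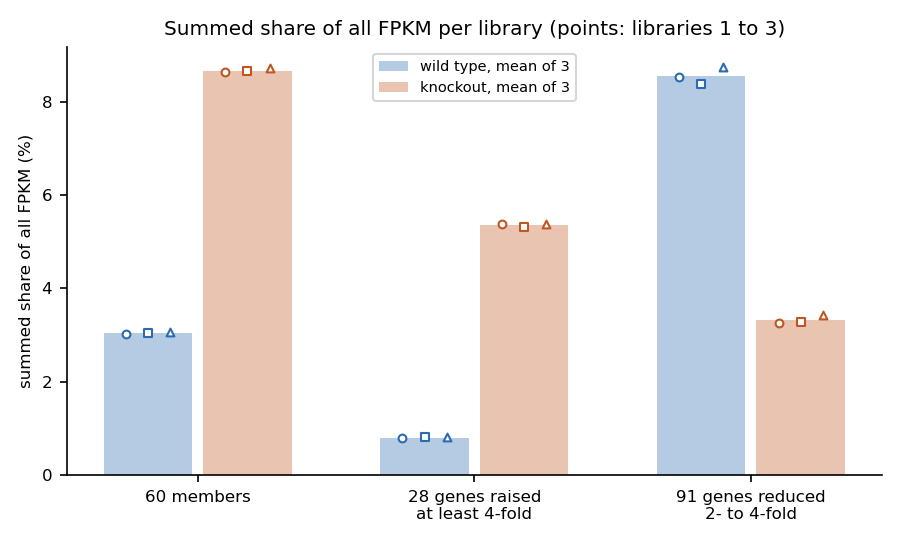
Summed share of all FPKM (percent, linear axis from 0) for the 60 members, for 28 genes raised at least 4-fold and for 91 genes reduced 2- to 4-fold; bars are means of 3 libraries and points are single libraries. The members sit near 3.04% in the wild type against 8.67% in the knockout, with points of 1 strain almost on top of each other.

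Other abundant groups picked on the same values give a scale for this share. The 28 genes raised at least 4-fold, with the same minimum level in the knockout and no overlap between the strains, took 0.80% ± 0.01 in the wild type against 5.36% ± 0.03 in the knockout. The 91 genes that mirror the members, with a wild-type mean of at least 400 FPKM and a fall of 2- to 4-fold without overlap, took 8.55% ± 0.17 and 3.33% ± 0.09. The members' share thus rose by 5.63 points where that of the mirrored genes fell by 5.23 points. Shares of one total are not independent of each other, and all these groups were chosen from the same contrast, so no difference between them was tested.

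The members made up a part of a wider set of abundant genes that were higher in the knockout. Of the 373 genes with a knockout mean of at least 400 FPKM, 88 had a ratio of at least 2, and 28 of these reached 4. The remaining 60 all had every knockout value above every wild-type value, so the condition on separate values removed no gene. A ratio of 1.5 to under 2 was seen in 52 further genes of that level. In the wild type, 21 of the members already had a mean of at least 400 FPKM and 39 did not.

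**Figure D2:**
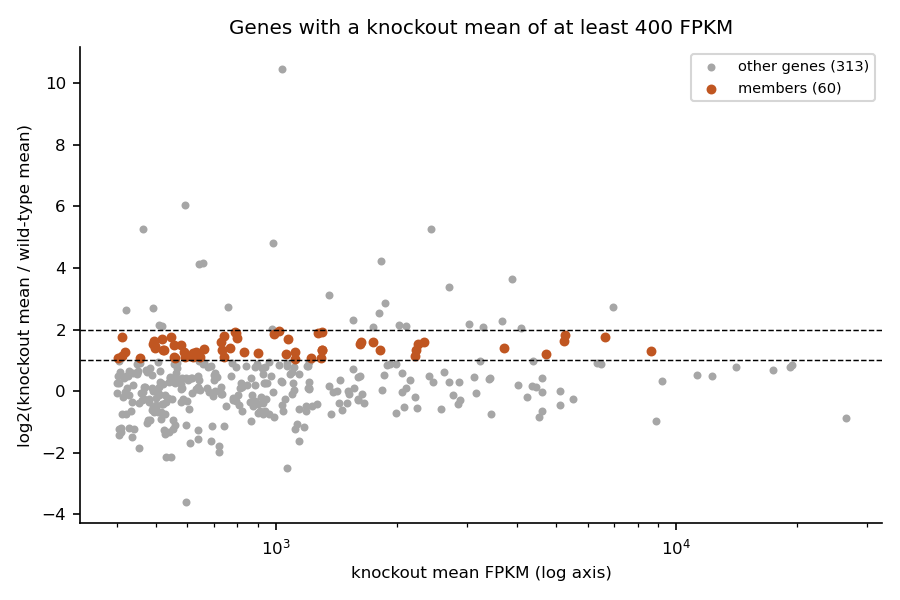
Log2 ratio of knockout over wild-type mean against the knockout mean FPKM (log axis) for the genes with a knockout mean of at least 400 FPKM; dashed lines mark ratios of 2 and 4, and members are coloured. Every gene between the lines is a member by the rule, and the members' knockout means run from 402 to 8652 FPKM, sparsely at the top.

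Against all genes, a limma fit on log2(FPKM + 1) across the 7703 genes that passed a filter on low values called 60 of the 60 members higher in the knockout at a Benjamini-Hochberg adjusted p under 0.05. The same fit called 16.7% of all tested genes higher, and 52.8% of the genes with a knockout mean of at least 400 FPKM. The count over the members is fixed by the rule and nothing is read from it. Values that did not overlap, with the knockout above, occurred in 21.6% of all tested genes. The members' median log2 ratio of means was 1.36, against -0.08 over the 7590 tested genes with both means above 0. The standard error of a member's log2 change was 0.05 to 0.14, with a median of 0.09, against a median of 0.27 over all tested genes. The members were picked for a high level and the tested genes were not, so this compares unlike levels.

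The most abundant members carried much of the sum. POX_3g04398, at the top, read 3306, 3448 and 3794 in the wild type against 8217, 8765 and 8973 in the knockout. It was also the member nearest the top in the wild type, at rank 29 of all identifiers, and moved to rank 10 with a ratio of 2.46. By itself it accounted for 0.885% of all FPKM in the knockout.

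POX_7g09598 read 1937, 2165 and 1835 in the wild type against 6939.5, 6911 and 5996 in the knockout, a ratio of 3.34. Knockout replicate 3 was lower than the rest of its strain, and still 2.77 times the highest wild-type value. For POX_1g01759 the wild-type values were 1549, 1489 and 1438 and the knockout values 5252, 5286 and 5302, a ratio of 3.54. This member had the most even knockout values of all 60, with a CV of 0.48%. POX_2g02416 had 1683, 1666 and 1704 against 5226, 5153 and 5296, a ratio of 3.10, with the smallest wild-type CV of the members, 1.15%.

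Below these, POX_1g01970 went from 1985, 2079 and 2071 to 4787, 4719 and 4675, a ratio of 2.31. The values of POX_4g05251 were 1487, 1372 and 1397 in the wild type against 3598, 3649 and 3881 in the knockout, a ratio of 2.61. Neither showed a library away from the rest of its strain, with CVs under 5% in both strains. These 6 genes summed to 12135 ± 162 FPKM in the wild type against 34209 ± 243 in the knockout (SD, n = 3 each). They made up 38.97% ± 0.33 of the members' sum in the wild type against 40.36% ± 0.29 in the knockout, and the other 54 members rose 2.66-fold as a sum against 2.82-fold for these 6. Summed ratios between 2 and 4 follow from the rule for any choice of members.

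**Figure D3:**
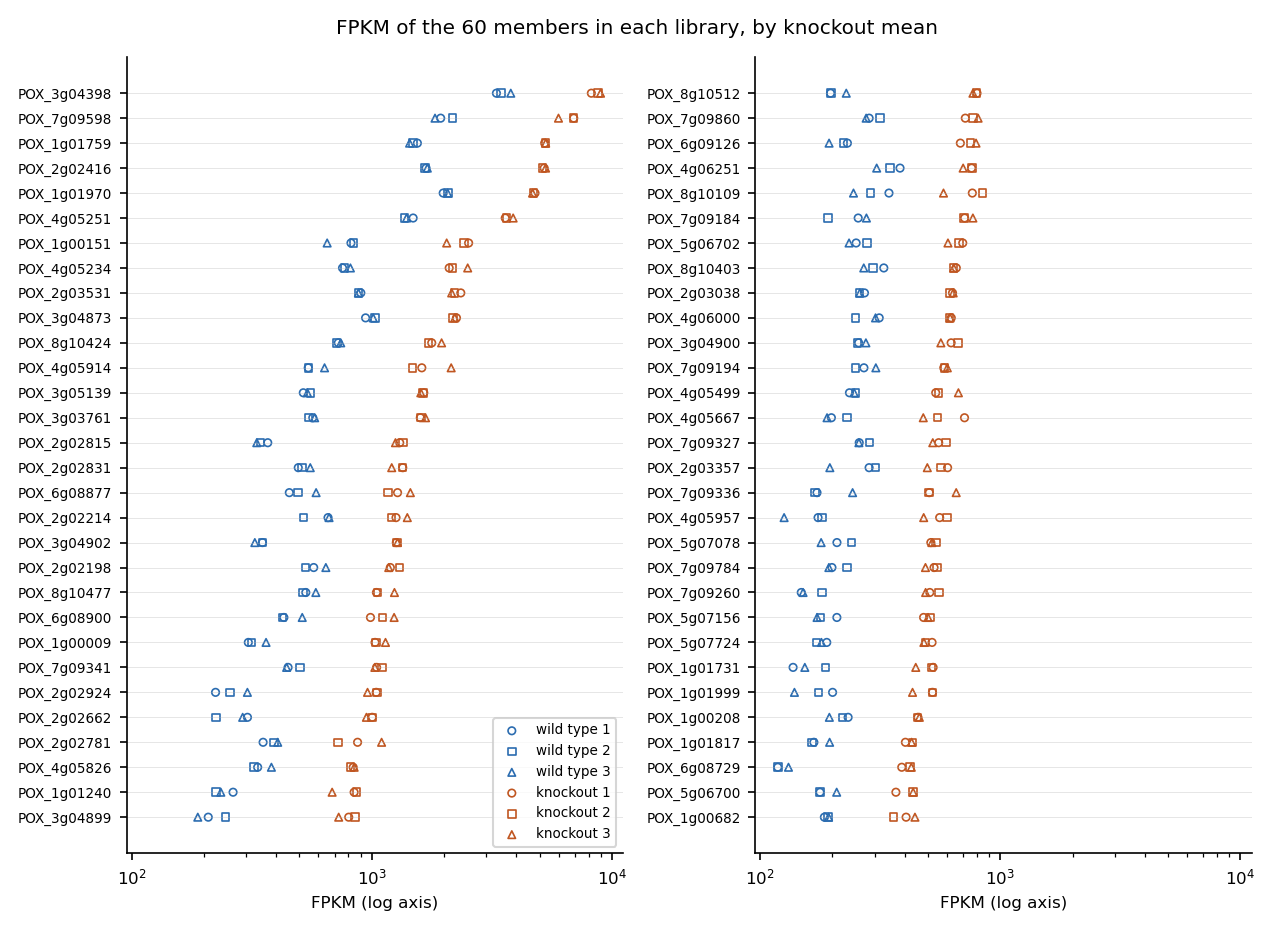
FPKM (log axis) of each of the 60 members, in order of knockout mean, in each library; blue marks are wild type, orange marks are knockout, and the marker gives the replicate. In every row the 3 orange marks lie to the right of the 3 blue marks, and the gap is narrowest for POX_2g03357, whose lowest knockout value is 1.64 times its highest wild-type value.

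A second tier of 4 genes had knockout means between 2218 and 2337 FPKM. In POX_1g00151 the wild-type values were 819.5, 838 and 652 and the knockout values 2533, 2428 and 2052, with replicate 3 the lowest in both strains. POX_4g05234 showed the opposite order, at 756, 769 and 815 against 2102, 2172 and 2510.2, with replicate 3 the highest in both. The ratios of these 2 genes were 3.04 and 2.90. POX_2g03531, at 901, 879.6 and 880.2 in the wild type against 2349, 2208 and 2153 in the knockout, rose 2.52-fold. POX_3g04873, at 943, 1031 and 1014 against 2254, 2184 and 2217, rose 2.23-fold. With these, 10 members had a knockout mean of at least 2000 FPKM, 15 had 1000 to under 2000, 26 had 500 to under 1000 and 9 were under 500.

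Ratios spread over the whole allowed range and were denser at its lower end. There were 24 members at 2 to under 2.5, 16 at 2.5 to under 3, 13 at 3 to under 3.5 and 7 at 3.5 or more. The median ratio was 2.57. Across the 60 genes the ratio had a Spearman correlation of 0.19 with the knockout mean and of -0.14 with the wild-type mean. Both are descriptions across genes of the same libraries, and each level is a term of the ratio. FPKM ranks genes only roughly here, because the divisor the authors used per gene is not known.

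At the high end of the ratios stood POX_2g02924, with 224, 257 and 304 in the wild type against 1044, 1051 and 961 in the knockout, a ratio of 3.90. POX_8g10512 had 196, 198 and 228 against 800.5, 796 and 769.9, a ratio of 3.80. POX_2g02815 had 369, 344 and 332 against 1308, 1353 and 1256, a ratio of 3.75. In all 3, the lowest knockout value was more than 3 times the highest wild-type value. POX_3g04902 and POX_3g04899 followed at 3.72 and 3.70, and are described with their neighbours further on. Just past the upper bound, and so not members, were POX_1g01655 (243 ± 16.6 to 976 ± 48.6 FPKM, a ratio of 4.02), POX_1g00573 (4.12) and POX_3g04898 (4.23).

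The smallest ratios were 2.05 in POX_8g10477, 2.09 in POX_7g09327, 2.10 in POX_2g02214, 2.10 in POX_2g02198 and 2.11 in POX_1g00208. POX_8g10477 had 531, 517 and 585 in the wild type against 1046, 1059 and 1244 in the knockout. Replicate 3 was the highest in both strains, and its wild-type value stayed well under the lowest knockout value. POX_1g00208 had 233, 220.4 and 194 against 454, 453 and 460.5, with a knockout CV of 0.889%. Just below the lower bound lay POX_1g00705 (1629 ± 193 to 3230 ± 314 FPKM, a ratio of 1.98), POX_6g08651 (1.97) and POX_1g01257 (1.96). The ratios thus ran on past the bound without a step.

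The bound on level fell in a continuous range of values as well. The lowest knockout means among members were 402 ± 40.9 FPKM in POX_1g00682, 411 ± 37.9 in POX_5g06700 and 412 ± 20.2 in POX_6g08729. POX_6g08729 also had the lowest wild-type mean, 123 ± 7.27, and rank 1382 in the wild type against 360 in the knockout. With ratios inside the range but levels too low, POX_4g06021 (399 ± 22.5), POX_7g09479 (391 ± 11.9) and POX_5g07124 (371 ± 26.3) were left out.

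The members also stood at different ranks among all genes in each strain. A shift of this kind follows from the rule's bounds on level and ratio, so nothing is read from it. In the wild type their ranks by mean FPKM ran from 29 to 1382, with a median of 618.5. In the knockout they ran from 10 to 371, with a median of 188.5. Of the 20 most abundant genes of the knockout, 5 were members, against 0 in the wild type. Among the 100 most abundant genes there were 5 members in the wild type against 15 in the knockout, and among the 200 most abundant 9 and 34.

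Replicates of a strain were close for most members. The replicate CV had a median of 9.0% in the wild type, from 1.15% to 22.1%, and of 5.71% in the knockout, from 0.48% to 21.1%. It was above the counting CV in 37 members in the wild type and 43 members for the knockout. Among the other 313 genes with a knockout mean of at least 400 FPKM, the median CVs were 6.49% and 5.68%. The wild-type libraries hold fewer footprints of the members than the knockout libraries do, and the part of depth in the wider wild-type spread was not tested. The rule set the strains apart, and within it the lowest knockout value was 1.64 to 3.61 times the highest wild-type value, and at least 2 times it in 44 members.

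A few members varied more. POX_2g03357 had the highest wild-type CV, with 284, 303 and 195 in the wild type against 604, 567 and 497 in the knockout. POX_2g02781 had the highest knockout CV, with 353, 392 and 406 against 873, 723 and 1099. In POX_2g03357 replicate 3 was the lowest of each strain, and in POX_2g02781 it was the highest of each. Named after their values were seen, POX_4g05914 (544, 546 and 636 against 1617, 1479.8 and 2143) and POX_4g05667 (198, 230.0 and 190.0 against 710.1, 549 and 478) were the other members with a knockout CV of at least 20%.

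In both strains replicate 3 deviated most from the strain mean over the members. Wild-type replicate 3 was the library of least depth, with 446892 footprints, and knockout replicate 3 that of most, with 1470898. The part of depth in these deviations was not tested. Knockout replicate 3 was the highest of its strain in 27 members and the lowest in 28, so it was the middle value in only a few. On the log2 scale, its deviation from the strain mean had an SD of 0.13 over the members, against 0.08 for each of the other knockout libraries. Wild-type replicate 3 deviated in the same direction as knockout replicate 3 in 42 of the 60 members. Over the members the 2 deviations correlated at a Pearson r of 0.61, and over 312 other genes of that level at 0.58, both as descriptions across genes of the same libraries. For replicates 1 and 2 the same-numbered deviations correlated at 0.26 and 0.30 over the members. Replicates 1 and 2 also correlated across numbers, over 415 genes of at least 400 FPKM. There wild type 1 and knockout 2 gave 0.26, and wild type 2 and knockout 1 gave 0.28. Same-numbered libraries gave 0.17 and 0.31 there, and 0.52 for replicate 3. Replicate 3 of either strain with replicates 1 and 2 of the other gave -0.42 to -0.30. The deviations of a strain cancel out over its libraries, so those of replicates 1 and 2 depend on that of replicate 3. The labels give no batch, and what same-numbered libraries share was not tested. With replicate 3 of both strains left out, the members' summed share was 3.03% in the wild type against 8.65% in the knockout. Their median log2 ratio was then 1.36. The members were still those picked with replicate 3 included, so a rise in the remaining libraries follows from the rule.

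**Figure D4:**
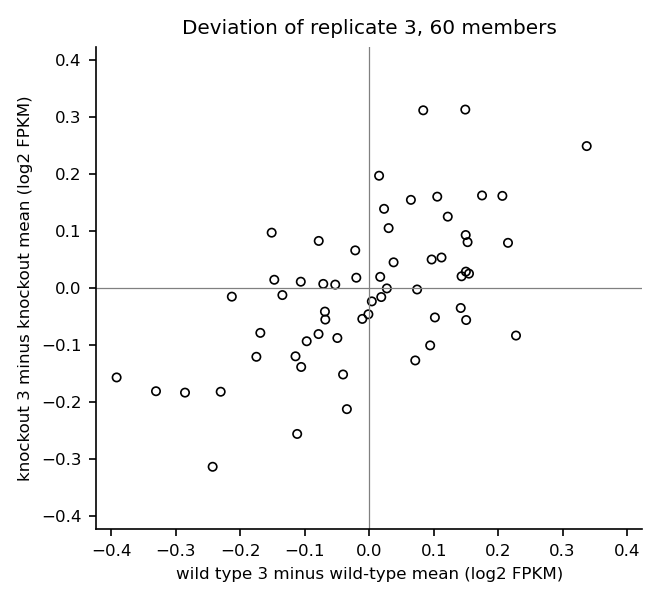
Deviation of wild-type replicate 3 from the wild-type mean (horizontal axis, log2 FPKM) against that of knockout replicate 3 from the knockout mean (vertical axis, log2 FPKM); each point is 1 of the 60 members. Points run from lower left to upper right, and 42 of 60 members have the same sign on both axes.

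Taken within each replicate number, the ratio of knockout to wild type had a median over members of 2.61, 2.62 and 2.69 for numbers 1, 2 and 3. The ratio of the summed FPKM was 2.73, 2.73 and 2.71. In 46 members the ratio was between 2 and 4 in all 3 numbers, in 10 it fell below 2 in at least 1 number, and in 4 it reached 4 in at least 1. The lowest single ratio was 1.83 and the highest 4.67. The rule picked the members on these same values, so ratios near its range follow from it. The labels state no pairing by number, so these ratios are a description and not separate repeats of the rise.

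The place of the members in the identifier order was not used by the rule. Members carried all of the prefixes 1 to 8, with 10 of 60 on prefix 1, 11 on prefix 2, 7 on prefix 3, 9 on prefix 4, 5 on prefix 5, 4 on prefix 6, 9 on prefix 7 and 5 on prefix 8. Prefix 7 held 15.0% of the members, 8.70% of all identifiers and 10.2% of the genes with a knockout mean of at least 400 FPKM. Prefix 4 held 15.0%, 13.9% and 9.92% in the same order. For prefix 6 the same shares were 6.67%, 11.6% and 9.65%. The files do not say what the prefix stands for, and these shares were not tested.

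Most members had no other member beside them in that order. Non-members next to a member could also be raised, and such neighbours are counted further on. Past the upper bound, POX_3g03762 (ratio 6.66) and POX_3g03763 (4.38) directly follow the member POX_3g03761 (2.88). Elsewhere, 3 members stood together. POX_3g04899 and POX_3g04900 are consecutive and POX_3g04902 is next but one. POX_3g04899 had 209, 246 and 189 in the wild type against 802, 851 and 728 in the knockout. POX_3g04900 had 257, 255 and 276 against 625, 668 and 566, and POX_3g04902 had 351, 351 and 326 against 1266, 1274 and 1279.7. All 3 rose, by 3.70, 2.36 and 3.72 times. The only other members within 2 steps of each other were POX_5g06700 and POX_5g06702, with ratios of 2.19 and 2.59.

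The identifiers around these 3 members were looked at together. From POX_3g04895 to POX_3g04904, a stretch whose ends were chosen after its values were seen, all 10 identifiers had every knockout value above every wild-type value and all 10 passed the threshold of the fit across all genes as higher. Over all tested genes these shares were 21.6% and 16.7%. The ends were set on these values and the rule fixed them for the 3 members, so nothing is read from the count. Ratios of means ran from 1.51 to 4.23, and 8 of the 10 were at least 2. The 10 genes summed to 2640.0 ± 34.2 FPKM in the wild type against 6997 ± 113 in the knockout (SD, n = 3 each), a ratio of 2.65. The 3 members made 42.8% of that gain. The other 7 missed the rule on level or on ratio: POX_3g04898, the highest of the stretch, went from 376, 407 and 457 to 1784, 1629 and 1838 with a ratio of 4.23, and POX_3g04901 had a ratio of 2.04 at a knockout mean of 280.4 FPKM.

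The identifiers on either side were outside this pattern. POX_3g04894, just before the stretch, went from 70.7 ± 20.5 FPKM to 45.0 ± 4.86, which the fit gives as -0.61 ± 0.22 (log2 change ± SE, limma, adjusted p = 0.0392). POX_3g04906, just after the stretch, had 1.99 ± 2.13 and 5.56 ± 3.70 FPKM, a log2 change of 1.23 ± 0.72 (SE) that did not pass the threshold (limma, adjusted p = 0.203). Further on, POX_3g04908 passed the threshold at a level near the filter, with 0, 0 and 5.36 FPKM in the wild type against 4.79, 6.05 and 10.8 in the knockout (limma, adjusted p = 0.0379), and its strains overlapped. The sources used here do not state whether consecutive identifiers are neighbours on a chromosome.

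**Figure D5:**
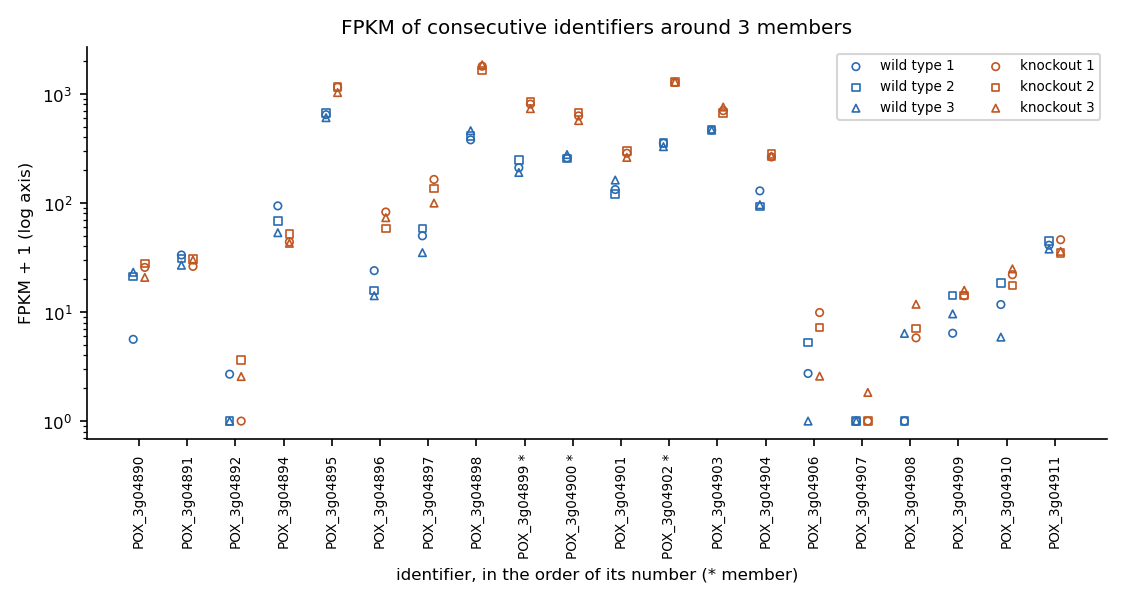
FPKM + 1 (log axis) in each library for the 20 consecutive identifiers in the files around POX_3g04899, POX_3g04900 and POX_3g04902, which are starred; blue marks are wild type and orange marks are knockout. From POX_3g04895 to POX_3g04904 the orange marks lie above the blue ones, while POX_3g04894 before and POX_3g04909 to POX_3g04911 after show no such gap.

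Genes next to a member in the identifier order were also counted. Of the 115 non-members directly before or after a member, 95 were tested. Of these, 29 were called higher (30.5%, against 16.7% of all tested genes) and 15 lower (15.8%, against 22.2%). Without the stretch the counts were 26 higher and 15 lower of 92. Next to the other genes with a knockout mean of at least 400 FPKM, 120 of 519 tested genes were called higher (23.1%) and 112 lower (21.6%). These shares are descriptions, and the difference between them was not tested.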

How the data were processed

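The deposited tables give 1 FPKM value per identifier and library, made by the authors. Among tools, STAR 2.7, cutadapt, Bowtie and DESeq2 appear in the submitters' processing notes, without a stated use. No source used here states the build, annotation, counter or per-gene divisor. Same-numbered libraries of the 2 strains have deposited FPKM totals that add up to one constant, by a step that is not stated.

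The members and lists were chosen with earlier results of these data known. Means of 3 libraries per strain gave the ratios, with no pseudocount. The fit across all genes used limma 3.58.1 (R 4.3.3) with a trended variance on log2(FPKM + 1), for genes of at least 1 FPKM in at least 3 libraries, two-sided, with Benjamini-Hochberg adjustment. The script was run on data simulated from the recovered footprints, so that run is no separate check of the recovered depths. Whole footprints were recovered from the steps between FPKM values, within 0.2 of a footprint, for 7854 of 7855 genes above 0 in enough libraries. The p-values measure the spread between libraries, since the labels do not say that replicates came from separate cultures.

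Named were the 10 members with the highest knockout mean, the 5 highest and 5 lowest ratios, those nearest each bound, consecutive identifiers, and the highest CV per strain. Pathway lists were not used, because 0 identifiers matched the reference table.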

Additional observations from a re-analysis of the deposited data

How the results depend on the processing

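All 60 members passed the threshold of the fit under each alternative run. That count follows from the rule, which used the same contrast, so nothing is read from it. No result changed direction. For the members' share and median ratio the rule largely fixed this, since the members were picked on these libraries. Leaving out 1 library, or replicate 3 of both strains, gave 61 to 65 genes meeting the rule, with 56 to 60 of the members kept. The summed share was 3.03% to 3.06% in the wild type and 8.65% to 8.69% in the knockout. The median log2 ratio was 1.35 to 1.40, and all 60 members passed the threshold. In the whole table, from 942 of 7553 tested genes to 1302 of 7567 were called higher. Scaling changed which genes met the rule: 68 did with the same total, 70 with median-ratio, 74 with upper-quartile and 71 without the 20 most abundant genes, of which 59, 57, 55 and 58 were among the 60 members. Other bounds gave 66 and 51 genes (knockout mean of at least 300 and 500 FPKM) and 83 and 48 (ratio of at least 1.8 and 2.2). The median log2 ratio was 1.40 without wild-type replicate 2. It was 1.43 when libraries were scaled to the same total, 1.45 with median-ratio scaling, 1.48 with upper-quartile scaling and 1.45 when scaled without the 20 most abundant genes. Without those 20 genes the members' share was 3.32% (wild type) and 9.76% (knockout), and of recovered footprints, an alternative chosen after seeing the data, it was 2.85% and 8.21%. Same-numbered libraries correlated at 0.17, 0.31 and 0.52 in their deviations over 415 genes of at least 400 FPKM, but at 0.02, 0.01 and 0.07 over 6000 genes of at least 10 FPKM, and over the members at 0.26, 0.30 and 0.61. Over the 415 genes, wild type 1 with knockout 2 gave 0.26, and wild type 2 with knockout 1 gave 0.28. Replicate 3 of either strain with replicates 1 and 2 of the other gave -0.42 to -0.30. The labels state no pairing and the correlation depends on the level of the genes, so the fit without the block was kept. With the replicate block, 60 members and 1378 of 7703 tested genes of the whole table were higher. The median SE of the members' log2 change was 0.079 with the block against 0.094 without it. Depth and strain cannot be told apart, since every knockout library was deeper.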
